A study of Mus musculus with 6 samples.

Results

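The transcripts of 10 chemokine ligands were measured in microglia, the brain's own macrophages, after flow sorting from 3XTg-AD mice that had received an NK cell-depleting antibody or an isotype control. The members are Ccl2, Ccl3, Ccl4, Ccl5, Ccl6, Ccl9, Ccl12, Cxcl2, Cxcl10 and Cxcl16, taken by gene symbol from a table of 24956 genes, and all 10 were found. All 10 also passed the filter on low counts, which left 14520 genes for testing. Chemokines are small secreted proteins that direct leukocytes along concentration gradients by binding G protein-coupled receptors. The CC and CXC families are named for whether their first cysteines are adjacent or set apart by another residue. In the brain, microglia make CC ligands that attract monocytes and T cells, and CXC ligands that attract neutrophils and lymphocytes.

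The anti-NK1.1 group comprised 3 libraries from 3XTg-AD mice given a depleting antibody to NK1.1, which natural killer (NK) cells carry on their surface. The isotype group comprised 3 libraries from 3XTg-AD mice given an isotype control antibody. Both groups were 7 months old and were dosed with 25 µg every 4 days over 4 weeks, and both carried the 3XTg-AD alleles, which include transgenes that drive neuronal expression of Alzheimer's disease-linked APP and MAPT. No wild-type mice and no mice without antibody belong to the comparison, and the labels do not state whether a library is 1 animal or a pool, so the spread between libraries may be partly technical. The comparison asks what depletion of NK cells does to microglial gene expression in this model of Alzheimer's disease.

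Gene counts per library ranged from 26.9 M to 36.1 M, and the lowest count of any of the 10 ligands was 423, for Cxcl10 in anti-NK1.1 1. The labelled cell type was checked against microglial markers, of which Tmem119 had a mean of 3086 ± 371 CPM (counts scaled to library size) in the anti-NK1.1 group and 2367 ± 624 CPM in the isotype group (SD, n = 3 each). Of the 10 microglial markers, 3 log2 changes were above 0 and 7 below, with a median of -0.19, and none passed edgeR's test over all genes. P2ry12 had 2694, 4384 and 2683 CPM in anti-NK1.1 libraries, against 5058, 4557 and 5010 CPM in isotype libraries, with the groups apart (log2 change -0.58 ± 0.23). The log2 changes of Sall1 and Cx3cr1 were -0.82 ± 0.39 and -0.52 ± 0.36, with overlapping groups. The part of these differences in the ligand values was not tested. The libraries also held neutrophil transcripts. The summed level of 12 neutrophil markers was 32735, 33465 and 142274 CPM in anti-NK1.1 libraries 1 to 3, and 102482, 80979 and 75344 CPM in isotype libraries 1 to 3. The defining markers S100a8 and S100a9 ranged from 10784 to 48927 CPM and from 9835 to 40784 CPM. Both were lowest in anti-NK1.1 2 and highest in anti-NK1.1 3. The sum of the 10 microglial markers ranged from 27306 CPM (anti-NK1.1 3) to 35979 CPM (anti-NK1.1 2). It was below the neutrophil sum in every library except anti-NK1.1 2. Sums of different markers do not give shares of cells. Long transcripts were relatively scarce in anti-NK1.1 1 and 3, where the deviation of a gene from its mean ran against transcript length with a rho of -0.15 and -0.31 across genes. The rho was 0.26 in anti-NK1.1 2, and -0.0075, 0.033 and 0.33 in the isotype libraries. All 10 ligands have transcripts shorter than the median tested gene of 3037 nt, from 532 nt for Ccl5 to 3006 nt for Ccl9.

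Proximal promoters are shown for Cxcl2, Ccl3, Ccl6 and Ccl9, which were highest in anti-NK1.1 3 and lowest in anti-NK1.1 2, and for Cxcl10, which did not follow that pattern. RefSeq windows of GRCm38.p6, from 250 bases before to 50 after the start site, matched 6 of the 10 ligands: these and Ccl12. Ccl2, Ccl4, Ccl5 and Cxcl16 are not shown. The windows are chr5:90903649-90903948 on the plus strand for Cxcl2, and chr11:83649329-83649628, chr11:83593038-83593337 and chr11:83578587-83578886 on the minus strand for Ccl3, Ccl6 and Ccl9. The Cxcl10 window is chr5:92348840-92349139 on the minus strand. Capitals mark matches, on either strand, to the NF-kB consensus, to the core of the interferon-stimulated response element (a repeat of GAAA), to the AP-1 motif TGANTCA or to the TATA motif TATAAA.
Cxcl2: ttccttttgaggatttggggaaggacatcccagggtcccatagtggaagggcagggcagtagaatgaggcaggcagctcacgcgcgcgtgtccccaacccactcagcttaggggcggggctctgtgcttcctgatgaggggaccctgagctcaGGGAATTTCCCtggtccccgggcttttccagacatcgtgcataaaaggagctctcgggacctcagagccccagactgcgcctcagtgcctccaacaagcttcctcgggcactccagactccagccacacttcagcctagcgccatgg
Ccl3: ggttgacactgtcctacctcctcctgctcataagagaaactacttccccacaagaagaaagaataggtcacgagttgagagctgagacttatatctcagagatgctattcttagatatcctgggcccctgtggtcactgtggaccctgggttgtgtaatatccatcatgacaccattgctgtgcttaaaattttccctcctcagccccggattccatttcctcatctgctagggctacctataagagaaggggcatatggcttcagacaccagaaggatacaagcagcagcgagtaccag
Ccl6: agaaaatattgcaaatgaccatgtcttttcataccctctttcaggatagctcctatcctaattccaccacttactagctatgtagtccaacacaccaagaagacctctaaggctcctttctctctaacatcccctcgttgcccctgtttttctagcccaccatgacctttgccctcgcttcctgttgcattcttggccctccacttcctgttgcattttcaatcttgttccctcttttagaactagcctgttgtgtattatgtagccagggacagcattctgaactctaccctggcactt
Ccl9: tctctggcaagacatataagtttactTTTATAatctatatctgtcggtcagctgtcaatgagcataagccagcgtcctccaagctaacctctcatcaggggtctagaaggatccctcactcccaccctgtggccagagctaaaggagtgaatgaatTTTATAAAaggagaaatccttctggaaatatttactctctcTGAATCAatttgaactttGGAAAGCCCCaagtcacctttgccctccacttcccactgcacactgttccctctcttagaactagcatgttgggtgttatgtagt
Cxcl10: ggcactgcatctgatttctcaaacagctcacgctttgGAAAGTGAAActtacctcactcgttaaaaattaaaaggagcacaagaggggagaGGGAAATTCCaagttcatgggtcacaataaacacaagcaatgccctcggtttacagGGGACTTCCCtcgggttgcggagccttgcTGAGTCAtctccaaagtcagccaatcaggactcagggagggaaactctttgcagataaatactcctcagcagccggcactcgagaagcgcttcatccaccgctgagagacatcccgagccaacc

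The NF-kB consensus was present in the windows of Ccl9, Cxcl2 and Cxcl10, 3 of 6, and in 4.51% of all 32851 promoter windows. In Cxcl10 it began 159 and 103 bases upstream of the start site. In Cxcl2 overlapping matches on opposite strands began 97 and 96 bases upstream. In Ccl9 it began 35 bases upstream. The interferon element was present only in Cxcl10 among the 6 windows, 213 bases upstream, and in 3.44% of all windows. AP-1 motifs lay 53 bases upstream in Ccl9 and 74 bases upstream in Cxcl10, and 7.81% of all windows held 1. TATAAA was present in Ccl9, with 1 copy 224 bases upstream and overlapping copies on opposite strands 94 and 92 bases upstream, and in Ccl12, and in 13.6% of all windows. The Ccl3 and Ccl6 windows held none of these letter strings. These matches describe sequence, and binding was not measured.

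None of the 10 ligands passed edgeR's quasi-likelihood test after adjustment over all genes, where 0% of 14520 genes passed. At an unadjusted edgeR p under 0.05 there was 1 ligand, Cxcl16, where 6.54% of all genes had such a p. DESeq2 called 0.574% of genes and none of the 10 ligands. Of the 10 log2 changes, 7 were above 0 and 3 below, with a median of 0.04, while over all tested genes 7394 were above 0 and 7126 below, with a median of 0.01. Cxcl16 alone had groups that did not overlap, with every anti-NK1.1 library above every isotype library. That pattern held for 7.73% of all tested genes, so the share among the ligands was close to that of all genes.

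**Figure D1:**
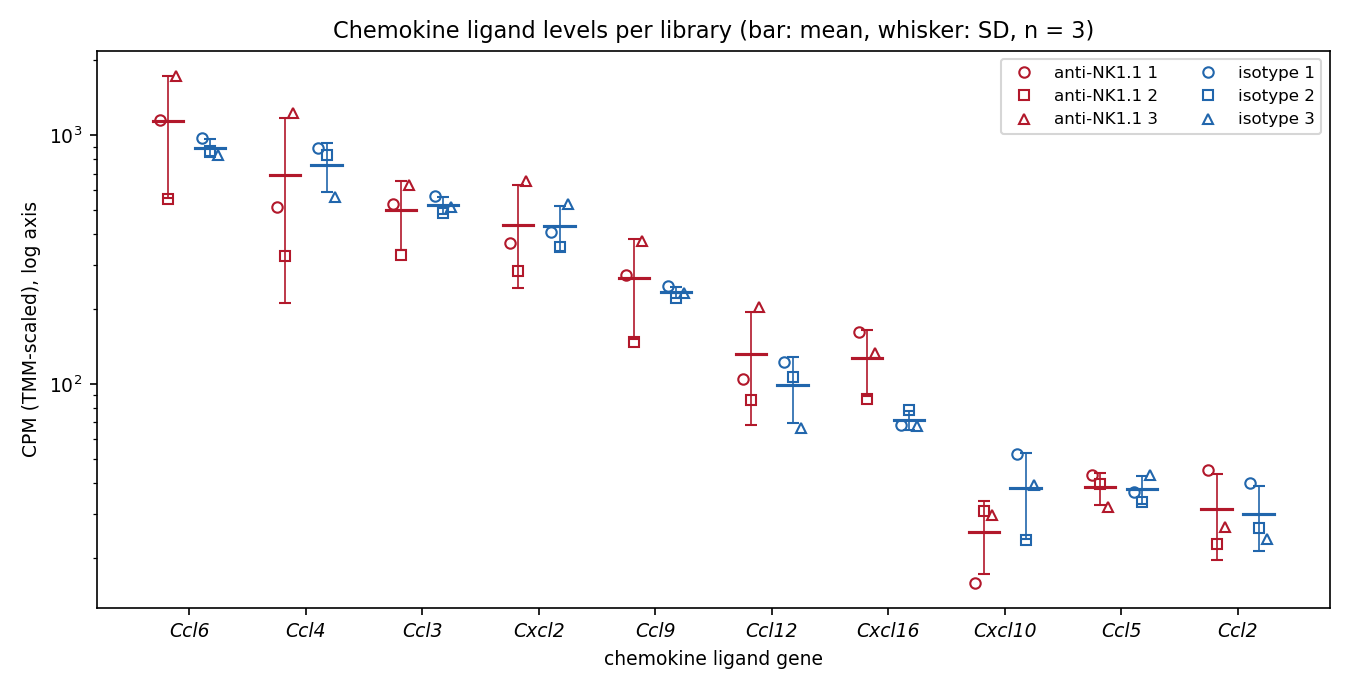
TMM-scaled CPM (log axis) of each chemokine ligand in each library, with anti-NK1.1 in red to the left of isotype in blue, bars at the mean and whiskers of 1 SD (n = 3 each). The groups are apart for Cxcl16 only, and the anti-NK1.1 points of Ccl6, Ccl4, Ccl9 and Cxcl2 span a wider range than the isotype points.

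Levels between genes were compared after dividing counts by the length of the longest coding transcript and scaling each library to a sum of 1000000 over 14391 genes. Ccl4 had the highest mean length-scaled level, 1372 ± 632 in anti-NK1.1 and 1756 ± 248 in isotype libraries (SD, n = 3 each), followed by Ccl3 and Ccl6. In the anti-NK1.1 libraries Ccl3 averaged 907 ± 112 and Ccl6 1069 ± 331, and in the isotype libraries Ccl3 averaged 1054 ± 98 and Ccl6 951 ± 39.9. The ranges of Ccl4, Ccl6 and Ccl3 overlapped in the anti-NK1.1 libraries, whereas in the isotype libraries Ccl4 stood above the other two, whose ranges overlapped. Ccl4 ranked between 36 and 106 among all genes in the 6 libraries. Ccl12 and Cxcl2 came next, at 334 ± 79.5 and 320 ± 63.9 in anti-NK1.1 libraries and 278 ± 57 and 362 ± 110 in isotype libraries, and did not differ beyond their spread in either group. Ccl9 and Ccl5 followed at 121 ± 27.7 and 107 ± 35.3 in anti-NK1.1 libraries and 120 ± 11.2 and 111 ± 25.2 in isotype libraries. The lowest levels were those of Ccl2, Cxcl10 and Cxcl16. In the anti-NK1.1 libraries Cxcl16 averaged 66.9 ± 17.5, Ccl2 56 ± 22.2 and Cxcl10 27.7 ± 12.4. In the isotype libraries Ccl2 averaged 56 ± 10.8, Cxcl10 43.3 ± 14.7 and Cxcl16 40.9 ± 4.92. Cxcl16 thus ranked 8 of 10 in every anti-NK1.1 library and 9 or 10 of 10 in every isotype library.

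Ccl3 and Ccl4, also known as MIP-1α and MIP-1β, attract T cells and monocytes, and Ccl3 binds CCR1. Both lie on chromosome 11, Ccl3 at 83647844 to 83649355 and Ccl4 at 83662584 to 83664683 (GRCm38), 13228 bases apart. Ccl3 had 531, 331 and 633 CPM in anti-NK1.1 libraries 1 to 3, against 570, 486 and 516 CPM in isotype libraries 1 to 3. The isotype values of Ccl3 lay within the span of the anti-NK1.1 values, and its log2 change was -0.07 ± 0.26 (SE; edgeR adjusted p = 0.954). Ccl4 had 513, 326 and 1231 CPM in anti-NK1.1 libraries, against 885, 835 and 564 CPM in isotype libraries. Anti-NK1.1 3 was the highest and anti-NK1.1 1 and 2 the lowest of the 6 libraries, and the log2 change was -0.14 ± 0.43 (edgeR adjusted p = 0.944). Without anti-NK1.1 3 the log2 change of Ccl4 was -0.86 (edgeR adjusted p = 0.701). The ratio of Ccl4 to Ccl3 counts, which does not depend on depth, was 0.966, 0.983 and 1.94 in the anti-NK1.1 libraries and 1.55, 1.72 and 1.09 in the isotype libraries, so the neighbours did not keep a fixed ratio in either group.

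Ccl5, or RANTES, attracts T cells and is made by T cells and NK cells as well as by myeloid cells (chromosome 11, 83525778 to 83530518). It was the least variable of the 10 in the anti-NK1.1 group, with 43.2, 39.7 and 32.1 CPM, against 36.7, 33.5 and 43.2 CPM in isotype libraries. The groups overlapped and had nearly the same mean, 38.3 ± 5.68 CPM in the anti-NK1.1 group and 37.8 ± 4.94 CPM in the isotype group (SD, n = 3 each). The log2 change was 0.02 with a 95% interval of -0.60 to 0.64 (edgeR adjusted p = 0.988). Transcripts of NK cells were scarce, with Klrb1c, which encodes NK1.1, at 0, 0 and 0.518 CPM in anti-NK1.1 libraries, against 1.39, 1.4 and 2.09 CPM in isotype libraries. The summed level of the 8 tested and 2 untested NK cell markers was 38.3, 44.1 and 76.8 CPM in anti-NK1.1 libraries, against 125, 133 and 88.7 CPM in isotype libraries, with 1 log2 change above 0 and 7 below among the tested markers. The summed level of T cell markers was 36.5, 37.1 and 38.5 CPM in anti-NK1.1 libraries, against 11.7, 28.9 and 21.6 CPM in isotype libraries. Of the 8 tested T cell markers, 7 log2 changes were above 0, and none passed edgeR's test over all genes. Cd3d, Cd3e, Cd3g and Cd8b1 had every anti-NK1.1 library above every isotype library, a pattern held by 7.73% of all tested genes. Their values were low, from 0.67 CPM (Cd3e, isotype 1) to 10.5 CPM (Cd8b1, anti-NK1.1 1). The part of these cells in the Ccl5 values was not tested. In RNA from a cell population, fewer cells of a type and less RNA per cell cannot be told apart.

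Ccl6 and Ccl9 are CCR1 ligands found in rodents and made by macrophages and other myeloid cells. They are 9245 bases apart on chromosome 11, with Ccl9 at 83572919 to 83578636 and Ccl6 at 83587882 to 83593087. Ccl6 had the highest counts of the 10, with 1155, 555 and 1724 CPM in anti-NK1.1 libraries, against 972, 867 and 833 CPM in isotype libraries. Anti-NK1.1 3 and 1 lay above all isotype libraries and anti-NK1.1 2 below all of them. Its log2 change was 0.36 ± 0.35 (edgeR adjusted p = 0.817), -0.06 without anti-NK1.1 3 and 0.69 without anti-NK1.1 2 (edgeR adjusted p = 0.981 and 0.177). Ccl9 had 275, 148 and 377 CPM in anti-NK1.1 libraries, against 247, 222 and 232 CPM in isotype libraries. The order of the anti-NK1.1 libraries was the same as for Ccl6, and the isotype values of Ccl9 spread least of the 10, with a coefficient of variation of 5.29%. The log2 change of Ccl9 was 0.19 ± 0.31 (edgeR adjusted p = 0.888). The ratio of Ccl6 to Ccl9 counts stayed between 3.76 and 4.57 in anti-NK1.1 libraries and between 3.59 and 3.94 in isotype libraries.

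Ccl2 and Ccl12 are ligands of CCR2, the receptor that draws inflammatory monocytes into tissue, and Ccl12 is known from the mouse. They are 64391 bases apart on chromosome 11, with Ccl2 at 82035571 to 82037453 and Ccl12 at 82101845 to 82103400. Ccl2 had 45, 22.7 and 26.7 CPM in anti-NK1.1 libraries, against 40, 26.3 and 23.7 CPM in isotype libraries. In both groups library 1 was the highest, and the log2 change was 0.07 ± 0.37 (edgeR adjusted p = 0.969). Ccl12 had 105, 86.3 and 204 CPM in anti-NK1.1 libraries, against 123, 107 and 66.5 CPM in isotype libraries. Anti-NK1.1 3 was the highest library and isotype 3 the lowest, and the log2 change was 0.42 ± 0.36 (edgeR adjusted p = 0.795). Without anti-NK1.1 3 it was -0.04. The ratio of Ccl12 to Ccl2 counts was 2.34, 3.79 and 7.64 in anti-NK1.1 libraries and 3.07, 4.06 and 2.80 in isotype libraries.

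Cxcl2, also known as MIP-2, recruits neutrophils through CXCR2 (chromosome 5, 90903871 to 90905938). It had 369, 285 and 654 CPM in anti-NK1.1 libraries, against 408, 356 and 527 CPM in isotype libraries. The groups overlapped, library 3 was the highest of each group, and the log2 change was 0.02 ± 0.32 (edgeR adjusted p = 0.990). Cxcl10, or IP-10, is induced by interferons and attracts T cells and NK cells through CXCR3 (chromosome 5, 92346638 to 92348889). It had 15.9, 30.8 and 29.7 CPM in anti-NK1.1 libraries, against 52.2, 23.5 and 39.1 CPM in isotype libraries. Anti-NK1.1 1 was the lowest library, while anti-NK1.1 2 and 3 lay within the isotype range. Its log2 change of -0.59 ± 0.39 was the lowest of the 10 and had a 95% interval of -1.47 to 0.30 (edgeR adjusted p = 0.754). Without anti-NK1.1 1 it was -0.34 and without isotype 1 it was -0.29, so these libraries moved it by more than 1.5 times.

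Cxcl16 is made as a membrane-anchored chemokine that is shed from the cell surface and binds CXCR6 on T cells and other lymphocytes (chromosome 11, 70453983 to 70459984). It had 162, 87 and 133 CPM in anti-NK1.1 libraries, against 68.3, 78.5 and 67.8 CPM in isotype libraries. All 3 anti-NK1.1 libraries lay above all 3 isotype libraries, with the gap between anti-NK1.1 2 and isotype 2 the narrowest. The mean was 127 ± 37.6 CPM in the anti-NK1.1 group and 71.6 ± 6.04 CPM in the isotype group (SD, n = 3 each). The log2 change was 0.83 ± 0.27, or 1.78 times the isotype level, with an unadjusted 95% interval of 0.23 to 1.43, and it did not pass edgeR's test over all genes (adjusted p = 0.727) or DESeq2's (adjusted p = 0.243). Leaving out 1 library gave 0.62 (without anti-NK1.1 1) to 1.04 (without anti-NK1.1 2), and without both anti-NK1.1 1 and 3 it was 0.29. With the length and GC offset it was 0.94. Zmynd15, a gene on the opposite strand, shares 18.3% of the exonic bases of Cxcl16, and the strand of reads was not marked. Zmynd15 had 1595, 840 and 786 counts in anti-NK1.1 libraries and 653, 783 and 777 counts in isotype libraries, against Cxcl16 counts of 4296, 2979 and 3330 in anti-NK1.1 libraries and 2450, 2533 and 2596 counts in isotype libraries. Its log2 change was 0.88 ± 0.39 (edgeR adjusted p = 0.743), and its part in the Cxcl16 counts was not tested.

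**Figure D2:**
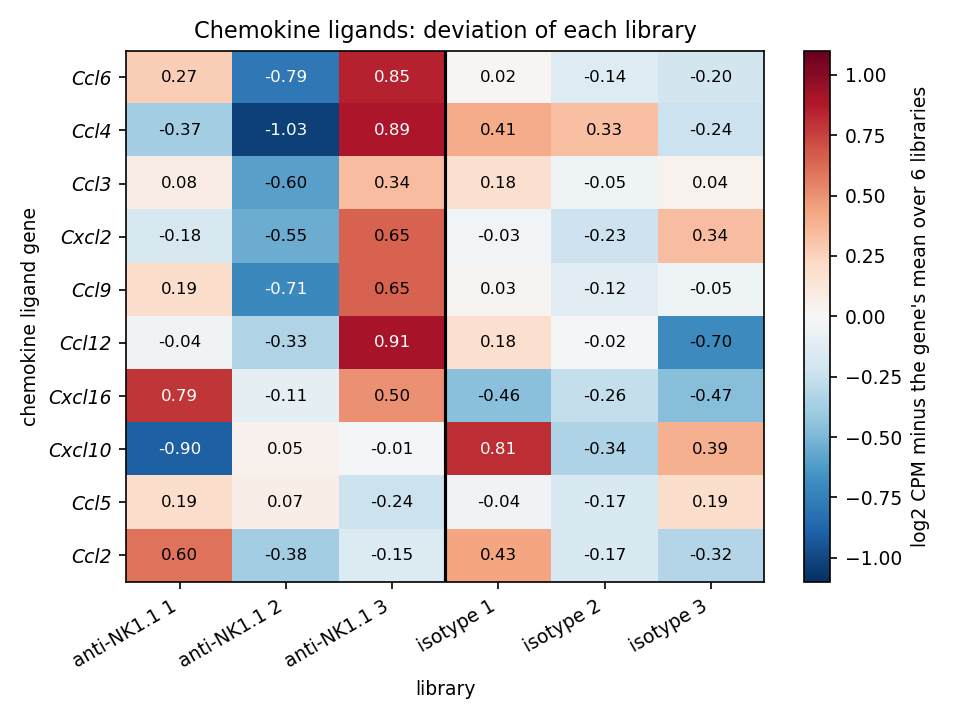
Log2 CPM of each chemokine ligand (rows, by isotype level) in each library (columns, anti-NK1.1 left of the line) minus the gene's mean over the 6 libraries, in red above and blue below that mean. Anti-NK1.1 3 is the highest library for 6 ligands and anti-NK1.1 2 the lowest for 6, while Cxcl16 is above its mean in anti-NK1.1 1 and 3 and below it in every isotype library.

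The spread within the anti-NK1.1 group was wide for most of the ligands. The coefficient of variation was larger among anti-NK1.1 than among isotype libraries for 9 of the 10, with a median of 40.4% in anti-NK1.1 and 16.8% in isotype libraries. Over the 8294 tested genes whose mean level was 10 CPM or more, it was larger in 63.3%, with medians of 28.5% in anti-NK1.1 and 21.8% in isotype libraries. Ccl3, Ccl4, Ccl6, Ccl9 and Cxcl2 were each highest in anti-NK1.1 3 and lowest in anti-NK1.1 2, a pattern that 6.35% of those 8294 genes showed. The pattern was picked after the ligand values were seen, so the share of all genes is no independent yardstick for it. The summed level of the 10 ligands was 3215, 1911 and 5045 CPM in anti-NK1.1 libraries, against 3402, 3035 and 2913 CPM in isotype libraries. That was 0.209% to 0.435% of gene counts in anti-NK1.1 libraries and 0.307% to 0.338% in isotype libraries, and Ccl3, Ccl4 and Ccl6 made up 63.4% to 71.1% of the sum in anti-NK1.1 libraries and 65.7% to 72.1% in isotype libraries. Anti-NK1.1 3 was also the library with the highest summed neutrophil markers, given above. S100a8, S100a9 and Ngp had 48927, 40784 and 26895 CPM of that sum. All 12 neutrophil log2 changes were below 0, and none passed edgeR's test over all genes. Cxcr2 and Mpo had every anti-NK1.1 library below every isotype library, where 7.59% of all tested genes did. The summed level of 10 monocyte markers was also highest in anti-NK1.1 3, with 1504, 1958 and 5753 CPM in anti-NK1.1 libraries, against 5009, 4439 and 4619 CPM in isotype libraries. Chil3 alone had 867, 1236 and 4085 CPM of that sum in anti-NK1.1 libraries, against 3345, 3045 and 2979 CPM in isotype libraries. Of the 10 monocyte markers, 6 log2 changes were below 0, and 4, among them Ccr2, Fn1 and F13a1, had every anti-NK1.1 library below every isotype library, a pattern held by 7.59% of all tested genes. Fn1 had 15.6, 20.2 and 17 CPM in anti-NK1.1 libraries, against 70.3, 60 and 151 CPM in isotype libraries. Its log2 change was -2.41 ± 0.38, which did not pass edgeR's test (adjusted p = 0.366) but passed DESeq2's (adjusted p = 4.68e-06). F13a1 had 24.5, 108 and 37.4 CPM in anti-NK1.1 libraries, against 159, 133 and 260 CPM in isotype libraries. Neutrophils and monocytes express several of these ligands. The neutrophil sums of anti-NK1.1 1 and 2 were 32735 and 33465 CPM, but single markers differed to unlike degrees. In these libraries S100a8 had 12255 and 10784 CPM, Ltf 552 and 1495 CPM and Mpo 11.8 and 237 CPM. The part of neutrophils, of monocytes and of transcript length in the ligand values was not tested.

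**Figure D3:**
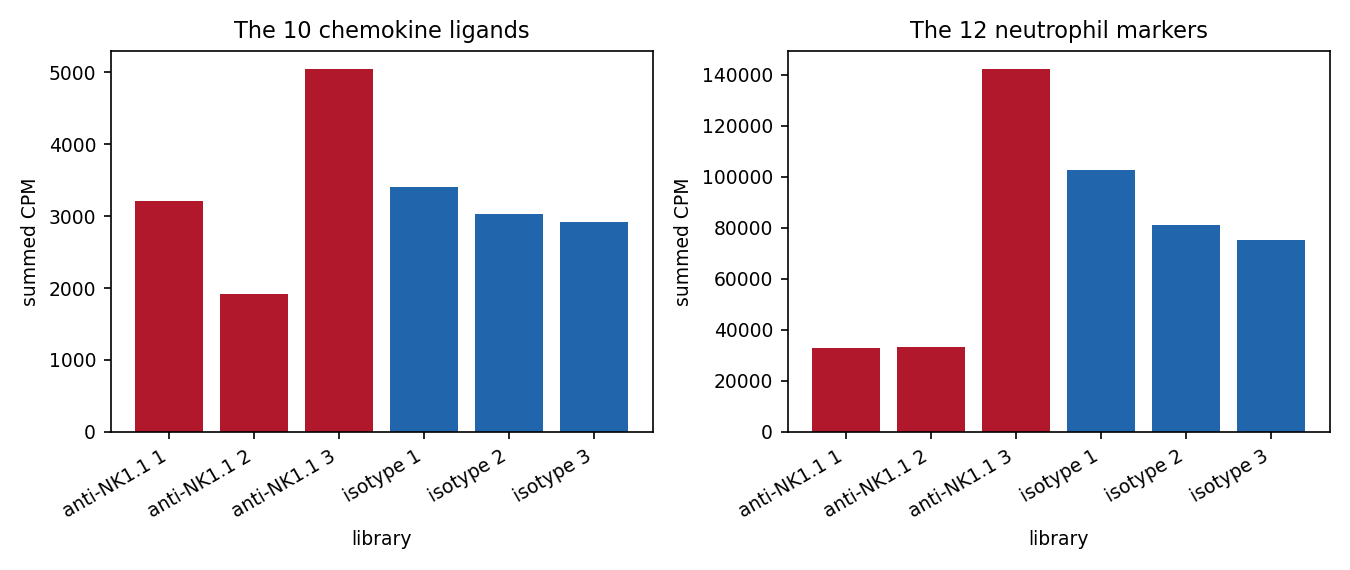
Summed CPM of the 10 chemokine ligands (left) and of the 12 neutrophil markers (right) in each library, anti-NK1.1 in red and isotype in blue, 1 bar per library. Anti-NK1.1 3 is the highest bar in both panels, at 5045 and 142274 CPM, and the ligand sum is lowest in anti-NK1.1 2, at 1911 CPM.

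Of the other 28 chemokine ligands listed, 17 passed the filter, and none of them passed edgeR's test over all genes. Their median log2 change was 0.76, with 11 above 0 and 6 below. In 6 of the 17 every anti-NK1.1 library was above every isotype library, where 7.73% of all tested genes had that pattern, and none had the opposite one. The 5 most abundant were Cxcl13, Pf4, Cxcl14, Cxcl1 and Cxcl3. Cxcl13, which attracts B cells through CXCR5, had 176, 134 and 171 CPM in anti-NK1.1 libraries, against 126, 91.6 and 34.1 CPM in isotype libraries (log2 change 0.93 ± 0.41, edgeR adjusted p = 0.743). Pf4, platelet factor 4, also a marker of border macrophages, had 89.9, 55 and 41.5 CPM in anti-NK1.1 libraries, against 27, 18.3 and 26.9 CPM in isotype libraries. Its log2 change was 1.37 ± 0.35 (edgeR adjusted p = 0.714, DESeq2 adjusted p = 0.0476). The groups were apart for both genes. Cxcl14 had 70.7, 28.1 and 45.2 CPM in anti-NK1.1 libraries, against 25.2, 25.2 and 10.3 CPM in isotype libraries (log2 change 1.25 ± 0.45), with the groups apart. Cxcl1, a CXCR2 ligand like Cxcl2, had 16.7, 16.4 and 29.2 CPM in anti-NK1.1 libraries, against 14.8, 9.18 and 11.7 CPM in isotype libraries (log2 change 0.81 ± 0.41), also with the groups apart. Cxcl3, another CXCR2 ligand, had 12.7, 1.43 and 11.2 CPM in anti-NK1.1 libraries, against 12, 11.1 and 18.4 CPM in isotype libraries, which overlapped (log2 change -0.71 ± 0.71). The other two with groups apart, Cxcl12 and Cx3cl1, are named because of their values and had log2 changes of 2.11 ± 0.98 and 0.90 ± 0.51. In the list of 10 border macrophage markers, which also holds Pf4, 8 log2 changes were above 0. In 5 of them every anti-NK1.1 library was above every isotype library, a pattern held by 7.73% of all tested genes. F13a1 had the opposite pattern, which 7.59% of all tested genes held. The summed level of the list was 237, 272 and 180 CPM in anti-NK1.1 libraries, against 228, 208 and 361 CPM in isotype libraries. Of these sums F13a1, which is also on the monocyte list and had a log2 change of -1.70, held 24.5, 108 and 37.4 CPM in anti-NK1.1 libraries. It held 159, 133 and 260 CPM in isotype libraries, so the sum does not follow most of the list. All 8 neuron and all 8 oligodendrocyte markers also had log2 changes above 0, and the part of these cells in the ligand values was not tested.

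**Figure D4:**
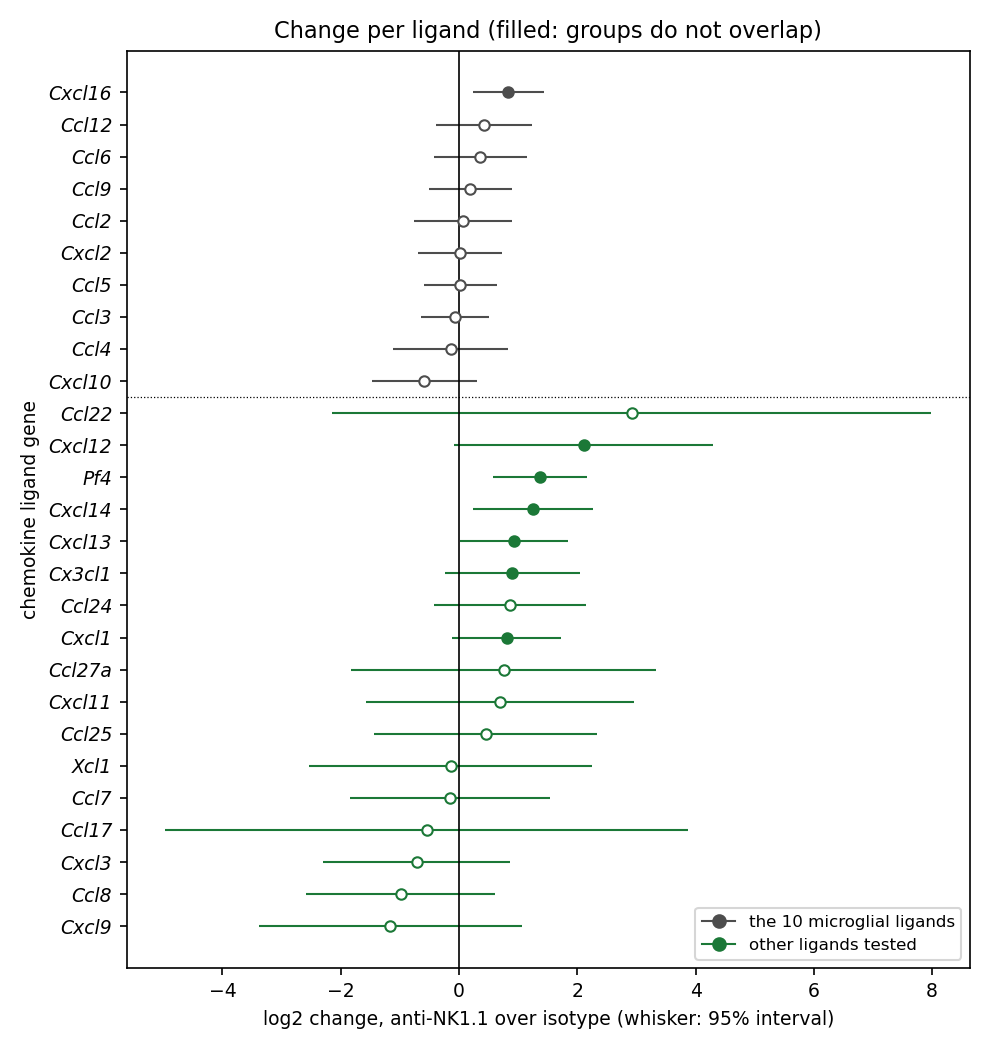
Log2 change (anti-NK1.1 over isotype, x axis) of each of the 10 chemokine ligands (grey, top) and of the 17 other tested ligands (green, bottom). Intervals are unadjusted 95% intervals, and points are filled where the groups do not overlap. Among the 10 the interval leaves out 0 for Cxcl16 only (0.23 to 1.43), and intervals are widest for scarce ligands such as Ccl22.

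Of 18 tested chemokine receptors, none passed edgeR's test over all genes, 7 log2 changes were above 0 and 11 below, and the median was -0.21. In 3 of the 18 every anti-NK1.1 library was below every isotype library, a pattern held by 7.59% of all tested genes. Ccr2, the receptor of Ccl2 and Ccl12, had 18.9, 63.8 and 37.4 CPM in anti-NK1.1 libraries, against 137, 84.6 and 162 CPM in isotype libraries. Its log2 change was -1.68 ± 0.43 (edgeR adjusted p = 0.714, DESeq2 adjusted p = 0.0253). Cxcr2, the neutrophil receptor of Cxcl2, had 41.1, 59.5 and 68.9 CPM in anti-NK1.1 libraries, against 96.4, 83.9 and 145 CPM in isotype libraries (log2 change -0.94 ± 0.30). Ccr1, the receptor of Ccl6 and Ccl9, had overlapping groups and a log2 change of -0.25 ± 0.23. Cxcr3 and Cxcr6, the receptors of Cxcl10 and Cxcl16, were scarce, at 2.81 ± 0.456 and 3.18 ± 3.16 CPM in anti-NK1.1 libraries, against 3.34 ± 1.87 and 3.34 ± 2.95 CPM in isotype libraries (SD, n = 3 each).

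Genes that act upstream of chemokine transcription were described from lists of NF-kB and inflammatory signalling, interferon signalling and immediate early genes. None of these genes passed edgeR's test over all genes. Of 23 NF-kB and inflammatory genes, 9 log2 changes were above 0 and 14 below, with a median of -0.35, and 6 had every anti-NK1.1 library below every isotype library, a pattern held by 7.59% of all tested genes. None had the opposite pattern, which 7.73% of all tested genes held. Il1a, the cytokine interleukin-1 alpha, had 88.5, 119 and 112 CPM in anti-NK1.1 libraries, against 255, 194 and 195 CPM in isotype libraries (log2 change -1.01 ± 0.23, DESeq2 adjusted p = 0.0298). Tnfaip3 and Nfkbiz, both induced by NF-kB, had log2 changes of -1.61 ± 0.39 and -1.05 ± 0.36 (DESeq2 adjusted p = 0.0201 and 0.254). Among the 6 ligands with a promoter window, those with the NF-kB consensus had log2 changes of 0.19 (Ccl9), 0.02 (Cxcl2) and -0.59 (Cxcl10). Those without it had -0.07 (Ccl3), 0.36 (Ccl6) and 0.42 (Ccl12). The part of NF-kB signalling in the ligand values was not tested. Of 14 interferon signalling genes, 5 were above 0 and 9 below, with a median of -0.33. Irf1, a transcription factor that binds interferon response elements, had 86.7, 78.3 and 75.1 CPM in anti-NK1.1 libraries, against 120, 97 and 133 CPM in isotype libraries (log2 change -0.54 ± 0.22), and the groups were apart. The kinase Jak2 had a log2 change of -2.14 ± 0.50 (DESeq2 adjusted p = 0.0162), also with the groups apart, and Ifnar2, an interferon receptor subunit, was the 1 gene of the list with every anti-NK1.1 library above every isotype library. Of 19 immediate early and stress genes, 8 were above 0 and 11 below, with a median of -0.02, among them Egr2 at -1.65 ± 0.44, Egr1 at -0.49 ± 0.35 and Atf3 at -0.48 ± 0.35. In that list Egr2 and Jun had every anti-NK1.1 library below every isotype library, where 7.59% of all tested genes did. The summed level of that list was 11193, 12542 and 21757 CPM in anti-NK1.1 libraries, against 14610, 16750 and 15673 CPM in isotype libraries, highest in the library that was highest for 6 of the ligands.

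Of 11 genes with parts in cleaving chemokines or holding them at the cell surface, 3 log2 changes were above 0 and 8 below. The median was -0.75, and none of these genes passed edgeR's test. Adam10, the main sheddase of Cxcl16, had 22.2, 149 and 54.7 CPM in anti-NK1.1 libraries, against 194, 124 and 177 CPM in isotype libraries. Its values were lowest in anti-NK1.1 1 and 3, where long transcripts were relatively scarce, and the log2 change was -1.13 ± 0.56. The part of transcript length in the Adam10 values and any link to Cxcl16 were not tested. Adam17, a related sheddase, and the gelatinase Mmp9 had log2 changes of -0.94 ± 0.44 and -0.90 ± 0.35, with overlapping groups.

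For the 3 ligands of smallest p, the genes of most similar profile were taken as those with the smallest root mean square difference of centred log2 CPM over the 6 libraries, among 8284 other genes whose mean level was 10 CPM or more. For Cxcl16 they were Slc25a28, a mitochondrial iron transporter (difference 0.09), and H2-DMb1, which loads peptides on MHC class II (difference 0.10). H2-DMb1 had 378, 227 and 341 CPM in anti-NK1.1 libraries, against 158, 168 and 162 CPM in isotype libraries, and like Cxcl16 was lowest of its group in anti-NK1.1 2. For Cxcl10 they were Ankrd17 (0.10) and Fem1c (0.16), both highest in isotype 1 and lowest in anti-NK1.1 1. For Ccl12 they were 1700037H04Rik (0.04) and Znrd1 (0.12), both highest in anti-NK1.1 3 and lowest in isotype 3. The profiles share the depth and makeup of the libraries, and the likeness is given as a description.

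**Figure D5:**
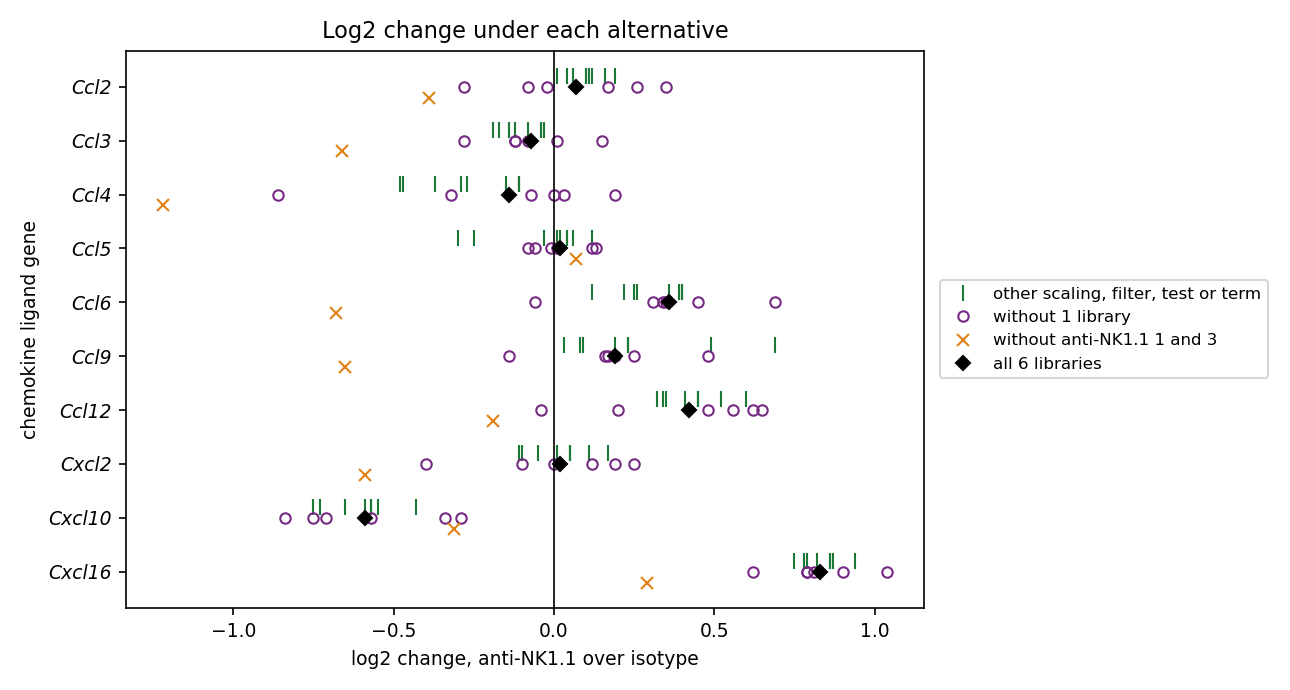
Log2 change (anti-NK1.1 over isotype, x axis) of each chemokine ligand with all 6 libraries (black), with another scaling, filter, test or term (green), without 1 library (purple circles) and without anti-NK1.1 1 and 3 (orange crosses). Cxcl16 stays above 0 and Cxcl10 below 0 in all 16 alternatives, and each of the other 8 crosses 0 in at least 2 of them.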

How the data were processed

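RNA was sequenced from 6 libraries of sorted microglia as 75 bp single-end reads (SMART-seq v4 and Nextera XT kits, without molecular identifiers or strand marking), per the labels' protocols. The submitters' processing notes list STAR 2.5.3a, Cufflinks 2.0, DESeq2 1.1 and build mm10. How reads were counted is not given in these sources. The deposited file is named normalized, but the authors' values are raw counts per gene: whole numbers with unequal totals. Left out were 26 rows with a calendar date as symbol and 2 rows of reads outside genes or ambiguous (no-feature share 53.3% to 57.4%).

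Counts were filtered with filterByExpr, TMM-scaled and tested two-sided for group with edgeR 4.0.16's quasi-likelihood test in R 4.3.3 (Benjamini-Hochberg over 14520 genes, threshold 0.05). The test was checked on simulated counts with log2 changes larger than those of the ligands. That check does not cover changes of the ligands' size. SE is the absolute log2 change over the square root of F, and 95% intervals are unadjusted. An exact permutation test of 3 against 3 cannot go below p = 0.1. Alternatives were DESeq2 1.42.0, limma 3.58.1, other scalings and filters, a length and GC offset (mgcv 1.9.3), a replicate block and leaving out libraries. Lengths (99.1% of tested genes) and coordinates are from GENCODE M21, GRCm38. Replicate libraries differed beyond counting noise.

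The ligands and gene lists were chosen with earlier results of these data known. Named are the 10 ligands, the 5 most abundant other ligands, receptors of the 10, the 3 genes of smallest p of each further list and the 2 nearest profiles of 3 ligands. Some genes that this rule covers are not reported here.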

Additional observations from a re-analysis of the deposited data

How the results depend on the processing

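None of the 10 ligands was called under any of the 16 alternatives. DESeq2 called 83 genes in all, and leaving out 1 library gave 0 to 129 edgeR calls, with the 129 arising without anti-NK1.1 2. Of 160 log2 changes of single ligands, 133 kept their direction. Those of Cxcl16 and Cxcl10 never changed sign. The median over the 10 ligands was 0.04 and ranged from -0.10 to 0.25 without 1 library. Without anti-NK1.1 1 and 3, an alternative added after the data were seen in which the lone anti-NK1.1 library is assumed to vary like the isotype libraries, the median was -0.49. The ligands that changed sign there were Ccl2, Ccl6, Ccl9, Ccl12 and Cxcl2, at -0.39, -0.68, -0.65, -0.19 and -0.59. Those that kept it were Ccl3 at -0.66, Ccl4 at -1.22, Ccl5 at 0.07, Cxcl10 at -0.31 and Cxcl16 at 0.29. With library totals alone, Ccl5 had -0.03 and Cxcl2 -0.10. Cxcl2 had -0.11 with limma on quantile-normalized values. Ccl5 had -0.30 with the length and GC offset and -0.25 with that offset and the replicate block. The causes were not tested.

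Without 1 library, log2 changes ran from -0.28 to 0.35 for Ccl2, -0.28 to 0.15 for Ccl3, -0.86 to 0.19 for Ccl4, -0.08 to 0.13 for Ccl5, -0.06 to 0.69 for Ccl6, -0.14 to 0.48 for Ccl9, -0.04 to 0.65 for Ccl12 and -0.40 to 0.25 for Cxcl2. The replicate numbers did not pair the libraries: deviations of same-numbered libraries correlated at 0.0525, 0.0301 and -0.00377 across genes. With the replicate block 0 genes were called, the median of the ligands was 0.03 and Cxcl2 had -0.05. The 95% intervals of the 10 ligands reached down to -1.47 (Cxcl10) and up to 1.43 (Cxcl16), which is the precision that 3 libraries a group gave.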
